A study of Homo sapiens with 12 samples.

Results

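U87 cells, an established human glioblastoma line, were given sgPNA-10b in nanoparticles (BNP in the labels) and compared with untreated U87 cells by mRNA sequencing. The comparison uses 6 of the 12 libraries of the study, 3 of cells given 150 nM sgPNA-10b for 72 h and 3 of untreated cells (control), chosen by the sample labels and not by any measured value. No time is listed for the untreated libraries, so a difference in culture time cannot be told apart from the treatment. The other 6 libraries are cells given sgPNA-21 at the same dose and time, and cells given both agents. They entered the same statistical fit and are used below only where they show how the sgPNA-10b arm differs. Every library came from the same line, grown in serum and seeded in wells the day before. The labels describe neither an arm with empty nanoparticles nor one with a PNA of unrelated sequence, so the agent and its carrier cannot be told apart. Separate cultures are not named for the 3 libraries within each arm, and p-values measure only the spread between these libraries.

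A peptide nucleic acid (PNA) is a synthetic strand whose bases hang on a chain of amide bonds in place of sugar and phosphate. An anti-seed PNA pairs with the seed of a microRNA, the short stretch near its 5′ end by which it recognises target transcripts. miR-10b is encoded in the HOXD gene cluster and belongs to the miR-10 family. It is scarce in normal brain and abundant in glioblastoma, where it has been studied as a factor that sustains growth and survival of the tumour cells. A microRNA lowers the level of transcripts whose 3′ untranslated region (UTR) pairs with its seed, so that blocking it can let such transcripts rise. The labels call the treated cells a miR-10b knockdown. The assay counted polyadenylated transcripts, and the level of mature miR-10b was not analysed here.

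The sequences that a seed effect would act through are shown first. The mature miR-10b-5p sequence is named only. RefSeq's GRCh38.p14 table gave the mature sequence of its family member miR-10a-5p, which has the same seed and is printed with bases 2 to 8 in capitals.
hsa-miR-10a-5p: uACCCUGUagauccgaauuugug
Below it stand 30-base windows of GRCh38 3′ UTRs with the matching letters in capitals, ACAGGGT or the longer ACAGGGTA. The first 4 belong to transcripts reported elsewhere as targets of miR-10b or miR-10a, and the others to transcripts that changed in sgPNA-10b cells.
BCL2L11 (chr2:111168331-111168360, forward strand): gatgaattttgACAGGGTAattgccacttt
HOXB3 (chr17:48549456-48549485, reverse strand): ttaacgtgaaaACAGGGTAtatttgaacaa
TFAP2C (chr20:56639018-56639047, forward strand): ttcatatatatACAGGGTAttaagaattaa
TIAM1 (chr21:31119187-31119216, reverse strand): atgccaacgaaACAGGGTAaacatgctcaa
EPHA2 (chr1:16124814-16124843, reverse strand): gcgccaagtaaACAGGGTAcctcaagcccc
TMEM119 (chr12:108590373-108590402, reverse strand): ttaaaacagctACAGGGTAaaatcctgcag
FAIM2 (chr12:49868606-49868635, reverse strand): gcctcaagcaaACAGGGTAtcacgcttgcc
ARSI (chr5:150297066-150297095, reverse strand): cccttggttgaACAGGGTAgggagcctgga
SLC7A11 (chr4:138166351-138166380, reverse strand): taccttgtgtgACAGGGTAttattacagca

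Total counts were 12846676 to 17053150 in the control libraries and 14026933 to 16969787 in the sgPNA-10b libraries. Of 35741 genes in the count table, 15715 had enough reads to be tested. On the first principal component of the 12 libraries, which held 30.2% of the variance, the control libraries lay between -32.4 and -20.3 and the sgPNA-10b libraries between -9.2 and -0.5. Replicate 2 of sgPNA-10b was the one farthest from control on that axis. Levels are given as CPM, counts scaled to a common library size. The line's own markers were checked: VIM, CD44, EGFR and MET were abundant, at 333 CPM or more in each of the 6 libraries, and CDKN2A, which is deleted in U87, had 0 counts in all 6. SOX2, S100B and PROM1 were below the filter, and GFAP stood at 2.75 to 4.89 CPM, so the classical glial markers were near absent. Of 9 markers of microglia and leukocytes only CSF1R was tested, and the list summed to 17.8 to 18.8 CPM in control and 13.7 to 14.5 in sgPNA-10b. The 7 endothelial markers summed to 11.0 to 13.5 and 9.87 to 12.1 CPM.

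Treatment changed 1019 genes at a Benjamini-Hochberg adjusted p under 0.05 in edgeR's quasi-likelihood test. Of the 15715 genes tested, 432 (2.75%) were higher and 587 (3.74%) lower. Changes were small: the median was 0.30 log2 among genes that rose and -0.35 among those that fell, and 13 rises and 45 falls reached 2-fold. The libraries of the 2 groups did not overlap for 1735 genes (11.0%) that were higher and 2011 genes (12.8%) that were lower. Single libraries weighed heavily on these calls. Of the 1019 genes, 267 (80 higher and 187 lower) kept their call whichever of the 6 libraries was left out. Without sgPNA-10b replicate 2 the counts were 98 and 208, without control replicate 1 they were 178 and 292, and without control replicate 3 they were 152 and 265. Counts in the sterol and collagen lists below held up across these fits, and those in the mitosis and replication lists did not.

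**Figure D1:**
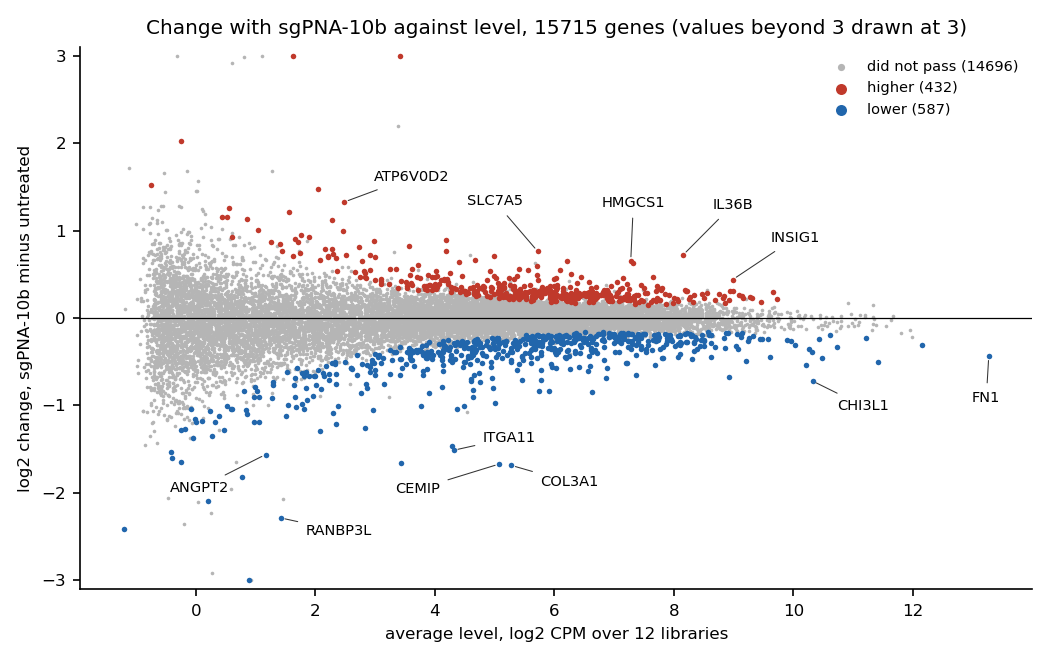
Log2 change of each tested gene (vertical axis, sgPNA-10b minus untreated) against its average level (horizontal axis, log2 CPM). Red points are the 432 genes that passed the test as higher and blue points the 587 that were lower; most lie close to 0, and COL3A1 is at -1.69.

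The design addresses what follows a block of miR-10b, and transcripts with a site for its seed were set beside those without one. A match to the seed was found in the longest annotated 3′ UTR of 1944 of 12261 tested genes, and their median log2 change was 0.0040, beside 0.0015 in the 10317 genes without a match. Of the genes with a match, 62 (3.19%) rose and 87 (4.48%) fell. Of those without, 338 (3.28%) rose and 467 (4.53%) fell. The 316 genes with the longer 8-base match had a median of 0.0054, with 7 higher (2.22%) and 18 lower (5.70%). These medians are a description, and the small differences between them were not tested.

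**Figure D2:**
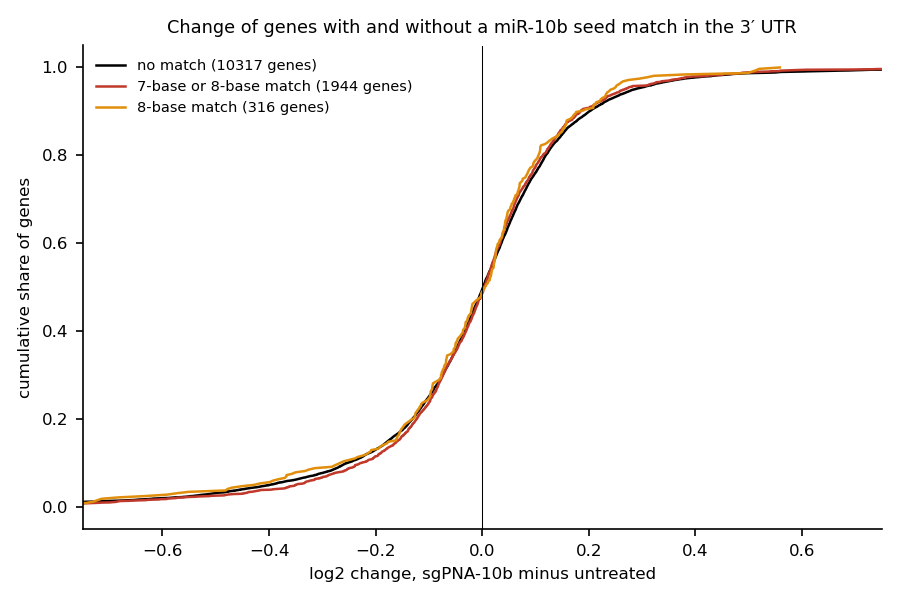
Cumulative share of genes (vertical axis) by log2 change, sgPNA-10b minus untreated (horizontal axis), for genes without a miR-10b seed match in the 3′ UTR (black), with a 7-base or 8-base match (red) and with an 8-base match (orange). The curves cross 0 at about the same height, with medians of 0.0015, 0.0040 and 0.0054.

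Calls among reported targets were near the share over all genes. Of 25 genes reported as targets of miR-10b or miR-10a, 24 were tested, 0 rose and 1 fell (4.17%). Over all genes 2.75% were higher and 3.74% lower. The list median was 0.02 beside -0.0015 over all genes. At an unadjusted p under 0.05, 2 were higher and 2 lower, and DESeq2 called 0. HOXD10, a homeobox gene and the best known target of miR-10b, was close to the lower limit of detection, at 0.804, 0.589 and 0.646 CPM in control and 1.16, 0.825 and 0.687 in sgPNA-10b. The groups overlapped, and the log2 change of 0.37 ± 0.32 did not pass (adjusted p = 0.59, edgeR). TFAP2C, a transcription factor with an 8-base site, was at 1.21, 1.002 and 1.05 CPM in control and 1.88, 1.65 and 1.12 in sgPNA-10b. Treated replicates 1 and 2 were above every control library and replicate 3 was within their range, and the change of 0.51 ± 0.26 did not pass.

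BCL2L11, which encodes the death-promoting protein BIM and carries an 8-base site, fell. Its level was 5.56, 5.24 and 5.65 CPM in control and 3.55, 4.18 and 3.44 CPM in sgPNA-10b. Every treated library was below every control library, and the log2 change was -0.55 ± 0.15 (edgeR adjusted p = 0.0264). The call was lost in DESeq2 and when control replicate 1 or 3 or sgPNA-10b replicate 1 or 3 was left out. Among other members, the cell cycle inhibitor CDKN1A changed by -0.03 ± 0.05, the RAS regulator NF1 by 0.03 ± 0.05, the RAC activator TIAM1 by -0.13 ± 0.07 and the proteoglycan SDC1 by 0.12 ± 0.06. The splicing factors did not pass either, with SRSF1 at 0.33 ± 0.13, TRA2B at 0.08 ± 0.06, MBNL1 at 0.10 ± 0.06, MBNL2 at -0.18 ± 0.07, MBNL3 at 0.33 ± 0.17, SART3 at -0.002 ± 0.06 and RSRC1 at -0.07 ± 0.06. Further members were HOXB3 (0.07), KLF4 (-0.11), USF2 (-0.01), MAPRE1 (0.10), BDNF (0.06), GATA6 (0.03), MAP3K7 (0.02) and BTRC (-0.03), and none passed the test.

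The HOXD cluster that holds the miR-10b gene gave no call in 8 tested genes of 13, and the others, the MIR10B entry among them, were below the filter. None of the 8 reached an unadjusted p under 0.05 in edgeR or a call in DESeq2. HOXD8 was the most abundant, at 15.02, 16.6 and 14.7 CPM in control and 16.3, 16.3 and 17.2 in sgPNA-10b, a change of 0.10 ± 0.09 within overlapping groups. HOXD4, beside which the microRNA lies, changed by 0.06 ± 0.15, HOXD13 by 0.15 ± 0.15, HOXD9 by -0.14 ± 0.24 and HOXD3 by -0.52 ± 0.43. The antisense transcripts HAGLR (-0.21 ± 0.14) and HOXD-AS2 (0.28 ± 0.20) did not pass either, and reads from a gene and its antisense partner are certain only where strand was used in counting. Of 13 genes that make or carry microRNAs, 0 passed in edgeR or DESeq2 and 3 were higher at an unadjusted p under 0.05, with AGO2, the slicing Argonaute, at 0.17 ± 0.06 and DICER1, which cuts the hairpin, at 0.10 ± 0.06. Transcripts with an 8-base match did change singly, 18 lower and 7 higher, and up to 5 in each direction are named. The receptor kinase EPHA2 (-0.48 ± 0.07), the transporter ABCC3 (-0.59 ± 0.08), FAIM2 (-0.68 ± 0.11), ARSI (-0.37 ± 0.07) and TMEM119 (-1.66 ± 0.21) fell. The cystine transporter SLC7A11 (0.56 ± 0.11), the proliferation marker MKI67 (0.27 ± 0.06), the kinase RPS6KA2 (0.32 ± 0.08), FBXO28 (0.31 ± 0.08) and the translation factor EIF1AX (0.25 ± 0.07) rose.

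The enzymes of sterol synthesis rose together. Cells make cholesterol from acetyl units through mevalonate and squalene, and the transcription factor SREBP2, encoded by SREBF2, switches these genes on when sterols in the endoplasmic reticulum run low. Of 10 genes from acetyl units to squalene, 8 rose and 0 fell, with a median of 0.35 beside -0.0015 over all genes. HMGCS1, which makes the precursor of mevalonate (chr5:43289395-43313512, hg38), was at 109.9, 118 and 118 CPM in control and 173, 184 and 187 CPM in sgPNA-10b. The 2 groups were far apart and each was tight, and the log2 change was 0.65 ± 0.06 (edgeR adjusted p = 6.67e-06). The isomerase IDI1 was at 67.4, 73.7 and 59.2 CPM in control and 82.9, 96.7 and 98.7 in sgPNA-10b. It rose by a smaller amount, 0.47 ± 0.08, again without overlap. ACAT2 (0.61 ± 0.09), MVD (0.44 ± 0.05), MVK (0.35 ± 0.08), FDPS (0.33 ± 0.06) and the squalene synthase FDFT1 (0.35 ± 0.05) also rose. PMVK (-0.02 ± 0.08) and GGPS1 (0.05 ± 0.09), the latter on the branch to geranylgeranyl groups, did not pass.

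Of 11 enzymes from squalene to cholesterol, 7 rose and 0 fell, with a median of 0.34. SQLE, which oxidises squalene, was at 86.9, 88.03 and 90.6 CPM in control and 109, 112 and 109 CPM in sgPNA-10b. All treated libraries were above all control libraries, and the change was 0.31 ± 0.05 (edgeR adjusted p = 0.000482). MSMO1 varied more, at 118, 123 and 90.7 CPM in control and 143, 185 and 185 CPM in sgPNA-10b, with treated replicate 1 lower than the other two. Its change was 0.63 ± 0.10. DHCR7 (0.38 ± 0.05), SC5D (0.36 ± 0.07), EBP (0.31 ± 0.06) and NSDHL (0.25 ± 0.06) also rose. LSS (0.23 ± 0.20), CYP51A1 (0.42 ± 0.18), HSD17B7 (0.34 ± 0.11) and TM7SF2 (-0.10 ± 0.15) did not pass, and CYP51A1 was listed at only 2.75 to 5.25 CPM.

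Among 15 genes that sense, import or export sterols, 4 rose and 0 fell. INSIG1, which holds the SREBP complex back and is itself switched on by it, was at 391, 393 and 347 CPM in control and 469, 525 and 542 CPM in sgPNA-10b. The groups did not overlap, and the change was 0.44 ± 0.06 (edgeR adjusted p = 0.000169). The lysosomal cholesterol exporter NPC1 (0.24 ± 0.05) and SREBF2 (0.21 ± 0.04) also rose. The export pump ABCA1, a target of the oxysterol-sensing LXR factors, changed by -0.08 ± 0.06 and SREBF1 by -0.12 ± 0.05, neither past the test, and MYLIP, an LXR-driven ubiquitin ligase, by -0.43 ± 0.15. The list median was -0.01. All 4 calls held without any single library. The promoter of SREBF2 holds the letters TCACCCCAC, a form of the sterol response element, at 133 bases before the RefSeq gene start (GRCh38.p14, capitals mark the motif).
SREBF2 (chr22:41832962-41832990, gene on the forward strand): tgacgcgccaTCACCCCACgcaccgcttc
These letters, searched on both strands from 250 bases before to 50 after the start, were in 1 of 13 promoters of the sensing list, 0 of 7 of the mevalonate list, 0 of 9 of the squalene list and 0.425% of all 27305 promoters. Variants of the element were not searched.

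Fatty acid genes moved less: of 14, 4 rose and 0 fell, with a median of 0.11. Fatty acid synthase FASN was at 383, 356 and 370.0 CPM in control and 453, 446 and 473 CPM in sgPNA-10b. The groups did not overlap and the change was 0.31 ± 0.05. The desaturases FADS2 (0.49 ± 0.09) and FADS1 (0.25 ± 0.06) rose, as did the elongase ELOVL5 (0.17 ± 0.05), whose call was lost under 7 of the other settings. Without control replicate 1 or sgPNA-10b replicate 2, 2 of the list rose. The stearoyl desaturase SCD, at 2297 CPM or more, changed by 0.15 ± 0.07 and did not pass.

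Genes of the amino acid response rose in part. ATF4 is a transcription factor whose protein is made when amino acids are short or the integrated stress response is on, and its targets include amino acid transporters, serine enzymes and tRNA synthetases. Of 15 regulators in this pathway 6 rose and 0 fell, with a median of 0.24. DDIT3, which encodes the factor CHOP, was at 33.9, 37.7 and 35.6 CPM in control and 44.99, 53.2 and 47.4 CPM in sgPNA-10b. Every treated library was above every control library, and the change was 0.44 ± 0.08 (edgeR adjusted p = 0.00127). TRIB3, a pseudokinase that restrains ATF4, rose by 0.64 ± 0.10, ATF3 by 0.40 ± 0.07, CEBPG by 0.38 ± 0.08, SESN2 by 0.37 ± 0.09 and NUPR1 by 0.25 ± 0.06. The ATF4 transcript itself changed by 0.12 ± 0.05 and did not pass, and neither did CHAC1 (0.28 ± 0.14).

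SLC7A5, the large neutral amino acid transporter, had the largest rise among the 12 transporters. It was at 39.6, 46.1 and 36.8 CPM in control and 64.1, 81.98 and 62.6 CPM in sgPNA-10b. Treated replicate 2 was the highest library, the groups did not overlap, and the change was 0.76 ± 0.12 (edgeR adjusted p = 0.000613). Its partner chain SLC3A2 (0.35 ± 0.06), SLC7A11 (0.56 ± 0.11), SLC38A1 (0.34 ± 0.06) and SLC1A4 (0.27 ± 0.07) rose, making 5 of the 12. Of 14 enzymes of serine, asparagine, proline and one-carbon metabolism, 3 rose and 1 fell. PSAT1, which makes phosphoserine, was at 63.6, 63.99 and 51.5 CPM in control and 85.7, 114 and 81.8 CPM in sgPNA-10b, where replicate 2 was again the highest. Its change was 0.65 ± 0.10, with PHGDH at 0.26 ± 0.06 and the mitochondrial folate enzyme MTHFD2 at 0.24 ± 0.07. The member that fell, PYCR1 of proline synthesis (-0.24 ± 0.07), lost its call in DESeq2 and under 7 other settings.

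Of 18 cytosolic aminoacyl-tRNA synthetases tested, which load amino acids onto tRNA, 6 rose and 0 fell. AARS1 was at 254, 269 and 261 CPM in control and 333, 359.8 and 289 CPM in sgPNA-10b, a change of 0.32 ± 0.06 with no overlap. GARS1 (0.28 ± 0.05), MARS1 (0.28 ± 0.06), WARS1 (0.27 ± 0.05), NARS1 (0.21 ± 0.05) and IARS1 (0.20 ± 0.06) were the other members that rose. Without sgPNA-10b replicate 2, 3 of 15 regulators, 4 of 12 transporters, 1 of 14 enzymes and 1 of 18 synthetases passed. The chaperones of the endoplasmic reticulum, which rise when unfolded proteins build up there, gave 0 calls among 19 in edgeR and in DESeq2, with a median of -0.06 and 4 members lower at an unadjusted p under 0.05. HSPA5, the main chaperone, was at 1708, 1596 and 1815 CPM in control and 1762, 1618 and 1544 CPM in sgPNA-10b, groups that overlapped (-0.06 ± 0.06).

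The letters TGATGNAA, a short form of the composite element that ATF4 and C/EBP factors bind, were searched on both strands of RefSeq promoters. They were in 3 of 15 promoters of the regulators, 2 of 10 of the enzymes, 3 of 11 of the transporters and 6 of 16 of the synthetases, and in 3.67% of all 27305 promoters. The windows below are from members that rose, with the match in capitals in the gene's reading direction.
ATF3 (chr1:212565206-212565233, gene on the forward strand): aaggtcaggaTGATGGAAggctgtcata
SLC3A2 (chr11:62881726-62881748, gene on the forward strand): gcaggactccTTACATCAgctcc
SLC38A1 (chr12:46266503-46266530, gene on the reverse strand): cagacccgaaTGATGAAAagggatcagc
MARS1 (chr12:57488054-57488081, gene on the forward strand): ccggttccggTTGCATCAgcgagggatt
AARS1 (chr16:70289676-70289703, gene on the reverse strand): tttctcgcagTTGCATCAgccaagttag
NARS1 (chr18:57621805-57621832, gene on the reverse strand): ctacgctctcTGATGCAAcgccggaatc
IARS1 (chr9:92293693-92293720, gene on the reverse strand): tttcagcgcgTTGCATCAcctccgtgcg
CHAC1 and TARS1, whose promoters also hold these letters, did not pass the test, at 0.28 and 0.13. The remaining members with a match, the 2 enzymes among them, did not pass either or were below the filter. A match shows only that the letters are there.

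Genes of cell division rose by small amounts. All 29 mitosis genes tested had a change above 0, and 22 rose (75.9%), with a median of 0.27. The kinase AURKA was at 102, 113 and 103 CPM in control and 137, 138 and 125 CPM in sgPNA-10b. The groups did not overlap and the change was 0.33 ± 0.06 (edgeR adjusted p = 0.00276). The checkpoint kinases BUB1 (0.32 ± 0.06) and BUB1B (0.30 ± 0.06), cyclin A2 CCNA2 (0.35 ± 0.07) and the ubiquitin enzyme UBE2C (0.29 ± 0.06) were, with AURKA, the 5 members with the smallest p. CDK1 (0.29 ± 0.06), cyclin B1 CCNB1 (0.27 ± 0.06) and the kinesin KIF11 (0.29 ± 0.06) also rose. This count depended on single libraries: 3 genes passed without sgPNA-10b replicate 2, 9 without control replicate 3, 11 without control replicate 1 and 14 without sgPNA-10b replicate 1. AURKA, BUB1 and BUB1B kept their calls throughout.

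All 30 genes of DNA replication and nucleotide synthesis likewise had changes above 0, and 7 rose, with a median of 0.17. RRM2, the regulated subunit of ribonucleotide reductase, was at 232, 243 and 228 CPM in control and 287, 305 and 276 CPM in sgPNA-10b, without overlap, a change of 0.30 ± 0.06 that held in every setting. The helicase subunit MCM3 (0.23 ± 0.06), the clamp loader subunit RFC3 (0.30 ± 0.07), the thymidine kinase TK1 (0.24 ± 0.06), E2F1 (0.26 ± 0.07), GINS1 (0.36 ± 0.09) and MCM6 (0.21 ± 0.06) rose. Without sgPNA-10b replicate 2 or control replicate 3, 1 member passed. Replication-dependent histone genes went the other way, with 0 higher and 3 lower of 9 tested. The members that fell were H4C8 (-1.05 ± 0.23), H2BC5 (-0.65 ± 0.15) and H2AC6 (-0.39 ± 0.11). Their transcripts mostly lack a poly(A) tail, and 6 more members were below the filter. Of 18 p53 targets only GADD45A rose (5.56%, beside 2.75% over all genes), by 0.24 ± 0.06. CDKN1A, the best known of them, changed by -0.03.

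The letters TTTGAA, the cell cycle homology region by which the DREAM complex holds mitotic genes down, were in 17 of 25 mitosis promoters (68.0%) and in 15.4% of all promoters. CCAAT, a box often found beside it, was in 19 of 25 (76.0%) and in 35.7% of all. Both strands were searched, and the windows show members that rose.
CCNB2 (chr15:59105107-59105132, gene on the forward strand): cgacgcggtaTTTGAAtcctggaaca
PLK1 (chr16:23678850-23678875, gene on the forward strand): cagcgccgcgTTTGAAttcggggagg
BUB1B (chr15:40161036-40161061, gene on the forward strand): gaccgttaaaTTTGAAacttggcggc
BUB1 (chr2:110678103-110678127, gene on the reverse strand): gccgccgccaCCAATgggcaggcgc
CCNA2 (chr4:121823925-121823949, gene on the reverse strand): gagcgctttcATTGGtccatttcaa
These promoters belong to a list chosen for its function, and such letters are common in it whatever the treatment.

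**Figure D3:**
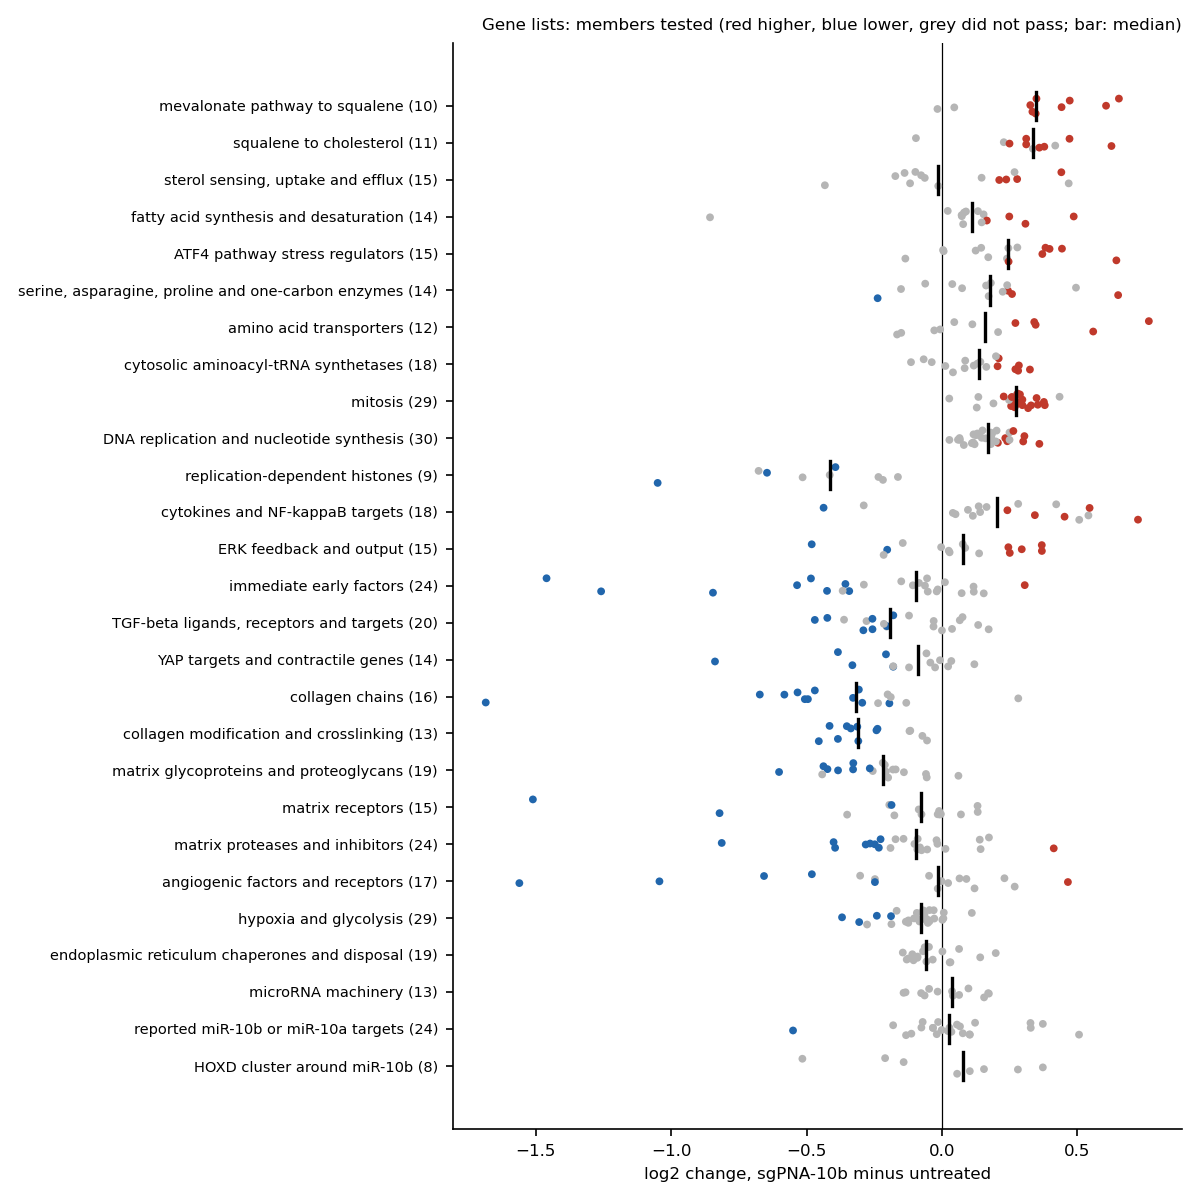
Log2 change of each tested member (horizontal axis, sgPNA-10b minus untreated) in 27 gene lists (rows, members tested in parentheses). Red points passed the test as higher, blue as lower, and bars are medians: 0.35 for the mevalonate list, 0.27 for mitosis and -0.32 for collagen chains, beside 0.02 for reported miR-10b targets.

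Collagen and the machinery that builds it fell. Fibrillar collagens are triple helices secreted as precursors, trimmed outside the cell and tied together by lysyl oxidases. Of 16 collagen chains tested, 0 rose and 11 fell, with a median of -0.32. COL1A1 (chr17:50183289-50201632, hg38), a chain of type I collagen, was at 1787, 1607 and 1726 CPM in control and 1207, 1091 and 1239 CPM in sgPNA-10b. Every treated library was below every control library, and the change was -0.53 ± 0.07 (edgeR adjusted p = 6.07e-05). COL3A1 (chr2:188974320-189012746), the type III chain, was at 73.3, 64.6 and 101 CPM in control and 26.9, 20.1 and 27.1 CPM in sgPNA-10b. Control replicate 3 was the highest library, the groups were well apart, and the change of -1.69 ± 0.17 was the largest in the list. COL7A1 (-0.67 ± 0.07), COL16A1 (-0.58 ± 0.08), COL5A1 (-0.50 ± 0.07), COL5A2 (-0.47 ± 0.07), COL1A2 (-0.51 ± 0.07), COL6A1 (-0.33 ± 0.06), COL6A3 (-0.31 ± 0.07), COL8A1 (-0.29 ± 0.07) and COL6A2 (-0.19 ± 0.05) also fell. COL4A1, a basement membrane chain, was listed at 0 to 0.0625 CPM, and whether reads were lost there was not tested.

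Of 13 genes that modify or crosslink collagen, 9 fell and 0 rose, with a median of -0.31. LOXL3, a lysyl oxidase, was at 247, 224 and 259 CPM in control and 198, 181 and 193 CPM in sgPNA-10b, without overlap, a change of -0.35 ± 0.06 (edgeR adjusted p = 0.00111). BMP1, the protease that trims procollagen (-0.46 ± 0.07), its enhancer PCOLCE (-0.38 ± 0.07) and LOXL1 (-0.42 ± 0.06) fell. The prolyl hydroxylases P4HA1 (-0.31 ± 0.07) and P4HA2 (-0.34 ± 0.06), the lysyl hydroxylases PLOD1 (-0.24 ± 0.05) and PLOD2 (-0.31 ± 0.08) and the collagen chaperone SERPINH1 (-0.24 ± 0.05) fell too. LOX (-0.06 ± 0.10) and LOXL2 (-0.12 ± 0.06), the most abundant crosslinkers here, did not pass. Across the leave-out fits the calls were 8 to 12 for collagen chains and 7 to 9 for modifiers.

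Other matrix proteins fell in part. Of 19 glycoproteins and proteoglycans, 7 fell and 0 rose, with a median of -0.22. Fibronectin FN1, the most abundant gene named here, was at 13254, 11322 and 14539 CPM in control and 10509.8, 8792 and 9569 CPM in sgPNA-10b. The groups did not overlap, and the change was -0.44 ± 0.08 (edgeR adjusted p = 0.0025). SPARC (-0.38 ± 0.06), NID2 (-0.60 ± 0.09), THBS2 (-0.42 ± 0.08), the laminin chains LAMB1 (-0.33 ± 0.06) and LAMC1 (-0.27 ± 0.06) and the perlecan gene HSPG2 (-0.33 ± 0.07) fell. Tenascin C (-0.17 ± 0.06 for TNC), fibrillin 1 (-0.06 ± 0.08 for FBN1) and TGFBI (-0.22 ± 0.07) did not pass. Of 15 matrix receptors, 3 fell (20.0%, beside 3.74% over all genes), with a median of -0.08. The largest fall was in the collagen-binding integrin ITGA11, at 37.5, 29.2 and 40.9 CPM in control and 12.2, 12.1 and 13.2 CPM in sgPNA-10b. These values were far apart (-1.51 ± 0.15), and ITGA10, which also binds collagen, fell (-0.82 ± 0.10). The fibronectin receptor chain ITGA5 changed by -0.01 ± 0.06 and CD44, the hyaluronan receptor, by -0.004 ± 0.05, neither past the test.

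Of 10 genes of hyaluronan turnover and binding, 1 fell and 1 rose (10.0% each), beside 3.74% lower and 2.75% higher over all genes. The list median was -0.07. CEMIP, which breaks hyaluronan down, was at 65.3, 38.1 and 83.7 CPM in control and 20.5, 16.4 and 21.4 CPM in sgPNA-10b. The control libraries spread widely but all lay above the treated ones, and the change was -1.67 ± 0.20. The hyaluronan receptor HMMR, also a gene of the mitotic spindle, rose (0.36 ± 0.08), a call lost without control replicate 3 or sgPNA-10b replicate 2. The hyaluronan synthases did not pass, with HAS1 at -0.31 ± 0.11, HAS2 at 0.07 ± 0.14 and HAS3 at 0.09 ± 0.19. Of 24 matrix proteases and inhibitors, 8 fell (33.3%) and 1 rose (4.17%), with a median of -0.10. The inhibitor TIMP2 (-0.28 ± 0.05), ADAM19 (-0.40 ± 0.08), the plasminogen activator PLAT (-0.40 ± 0.09), the membrane collagenase activator MMP14 (-0.23 ± 0.05), MMP1 (-0.81 ± 0.19), ADAMTS12 (-0.25 ± 0.06), TIMP3 (-0.27 ± 0.07) and the gelatinase MMP2 (-0.23 ± 0.06) fell. ADAMTS5, which cuts aggrecan and versican, rose by 0.41 ± 0.09. Without control replicate 1, 2 members of this list fell and 0 rose, and without control replicate 3 or sgPNA-10b replicate 2, 3 fell.

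Immediate early genes, which serum and growth factors switch on within minutes, fell in part. Of 24 tested, 8 fell and 1 rose, with a median of -0.10. FOSB (chr19:45467995-45475179, hg38), a partner of JUN in AP-1, was at 34.9, 25.8 and 40.8 CPM in control and 16.1, 8.43 and 12.5 CPM in sgPNA-10b. The spread within each group was wide but they did not overlap, and the change was -1.46 ± 0.18 (edgeR adjusted p = 5.54e-05). FOS was at 161, 129 and 179 CPM in control and 104, 66.5 and 91.00 CPM in sgPNA-10b, a change of -0.85 ± 0.14, also without overlap. The nuclear receptors NR4A1 (-1.26 ± 0.20) and NR4A2 (-0.48 ± 0.13), EGR1 (-0.42 ± 0.09), JUNB (-0.36 ± 0.06), the phosphatase DUSP1 (-0.54 ± 0.09) and the RNA-decay factor ZFP36 (-0.34 ± 0.08) fell. FOSL1, a slower member of the family, rose by 0.31 ± 0.07, a call lost without control replicate 3 or sgPNA-10b replicate 2. JUN (-0.11 ± 0.05), MYC (0.07 ± 0.06) and SRF (-0.06 ± 0.07) did not pass. Promoter letters of the serum response and cyclic AMP elements were present in few members: CCATATTAG in 1 of 19 and TGACGTCA in 2 of 19, beside 0.0952% and 1.98% of all promoters. Those of EGR1 and DUSP1, which fell, are shown with the match in capitals.
EGR1 (chr5:138465364-138465392, gene on the forward strand): gccggtcctgCCATATTAGggcttcctgc
DUSP1 (chr5:172771303-172771330, gene on the reverse strand): gcagggcgggTGACGTCAccgccccgtc

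Genes driven by sustained ERK signalling were mixed. Of 15, 5 rose and 2 fell, with a median of 0.08. The phosphatases DUSP5 (0.37 ± 0.08) and DUSP6 (0.29 ± 0.08), which switch ERK off, the ETS factors ETV4 (0.37 ± 0.08) and ETV5 (0.24 ± 0.06) and cyclin D1 CCND1 (0.25 ± 0.06) rose. EPHA2 was at 43.6, 39.4 and 41.7 CPM in control and 30.4, 28.1 and 30.8 CPM in sgPNA-10b, below control in every library, and DUSP4 fell (-0.20 ± 0.05). Without sgPNA-10b replicate 2, 1 gene of this list rose and 1 fell.

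The TGF-beta system fell in part, with 7 of 20 lower and 0 higher and a median of -0.19. The ligands TGFB1 (-0.18 ± 0.05), TGFB2 (-0.42 ± 0.11) and TGFB3 (-0.47 ± 0.13) fell, as did the latency proteins LTBP1 (-0.20 ± 0.06), LTBP2 (-0.26 ± 0.07) and LTBP3 (-0.26 ± 0.06) and the target ID2 (-0.29 ± 0.09). The receptors TGFBR1 (0.08 ± 0.07) and TGFBR2 (-0.12 ± 0.05) and the feedback inhibitor SMAD7 (-0.20 ± 0.12) did not pass. Without sgPNA-10b replicate 2, 0 of the list passed in edgeR, and without control replicates 1 and 3 in turn 2 and 1 passed. DESeq2 with all libraries called 6. Of 14 YAP targets and contractile genes 5 fell. CCN2, the connective tissue growth factor, was at 77.8, 55.98 and 75.9 CPM in control and 43.2, 32.1 and 41.9 CPM in sgPNA-10b, with treated replicate 2 the lowest. The groups did not overlap (-0.84 ± 0.15), and TPM2 (-0.38 ± 0.07), CCN1 (-0.33 ± 0.09), CNN2 (-0.21 ± 0.05) and MYL9 (-0.18 ± 0.05) fell by less. Without control replicate 1 or sgPNA-10b replicate 2, 2 of the list fell. The smooth-muscle genes ACTA2 (-0.01 ± 0.08) and TAGLN (-0.04 ± 0.14) did not pass.

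Among factors that act on blood vessels, 5 of 17 fell (29.4%) and 1 rose (5.88%), beside 3.74% and 2.75% over all genes. The list median was -0.02. ANGPT1, a ligand of the endothelial TIE2 receptor, was at 34.7, 36.1 and 39.5 CPM in control and 17.97, 15.4 and 20.1 CPM in sgPNA-10b. The treated level was close to 2-fold lower with no overlap, a change of -1.04 ± 0.10 (edgeR adjusted p = 6.67e-06). ANGPT2, which competes with it, was much scarcer, at 4.63, 4.42 and 4.68 CPM in control and 1.67, 1.24 and 1.75 CPM in sgPNA-10b, and fell (-1.56 ± 0.22). The platelet-derived growth factor receptors PDGFRA (-0.66 ± 0.17) and PDGFRB (-0.48 ± 0.08) and the co-receptor NRP1 (-0.25 ± 0.05) fell, and FGF5 rose (0.46 ± 0.11). Without control replicate 3 or sgPNA-10b replicate 2, 3 of the list fell and 0 rose, and without control replicate 1, 4 fell and 0 rose. VEGFA, the main vessel growth factor, was at 1768, 1729.8 and 1877 CPM in control and 1709.6, 1555 and 1667 CPM in sgPNA-10b, a change of -0.12 ± 0.07 that did not pass although every treated library was below every control library. In the insulin-like growth factor system the binding proteins IGFBP4 (-0.71 ± 0.10) and IGFBP5 (-0.53 ± 0.11) fell among 12 tested (16.7%). The median of that list was -0.08, and IGFBP3, the most abundant of the binding proteins, changed by 0.07 ± 0.06.

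Inflammatory genes rose in part, with 5 of 18 cytokines and NF-kappaB targets higher and 1 lower and a median of 0.20. Interleukin 1 beta, IL1B, was at 43.8, 46.8 and 44.1 CPM in control and 63.5, 68.3 and 64.9 CPM in sgPNA-10b. Both groups were tight and apart, and the change was 0.54 ± 0.08 (edgeR adjusted p = 0.000385). LIF (0.45 ± 0.09), the apoptosis inhibitor BIRC3 (0.72 ± 0.18), CXCL2 (0.34 ± 0.10) and TNFAIP3 (0.24 ± 0.07) rose, and the adhesion molecule ICAM1 fell (-0.44 ± 0.09). The calls of BIRC3, CXCL2 and TNFAIP3 were lost when single libraries were left out, and 2 to 7 of the list rose in those fits. IL36B, another interleukin of the same family and not in the list, was at 169, 175 and 164 CPM in control and 277, 283 and 277 CPM in sgPNA-10b, a rise of 0.72 ± 0.08. Of 23 interferon-stimulated genes, 1 fell (4.35%) and 0 rose, near the 3.74% lower and 2.75% higher over all genes. The gene that fell was IFIT1 (-0.76 ± 0.13), while ISG15 (-0.10 ± 0.12) did not pass.

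Several groups had list medians of only -0.15 to 0.05, though most held more calls than the share over all genes. That share was 2.75% higher and 3.74% lower. The lower share was 13.8% for hypoxia and glycolysis, 17.6% for lysosomal enzymes, 15.4% for the BCL2 family and 13.3% for heat shock. It was 5.26% for NRF2 targets and 0% for metallothioneins, and 11.8% of proton pump subunits were higher. Of 29 genes of hypoxia and glycolysis 0 rose and 4 fell, with a median of -0.08. The 4 were adrenomedullin ADM (-0.37 ± 0.07), PFKFB3 (-0.31 ± 0.07), ALDOC (-0.24 ± 0.06) and PFKL (-0.19 ± 0.05), and CA9 (-0.12 ± 0.08) and LDHA (-0.08 ± 0.07) did not pass. Of 19 NRF2 targets and ferritin genes, NQO1 fell (-0.25 ± 0.07) and HMOX1 did not pass (0.32 ± 0.11). Of 15 heat shock genes, HSPA9 rose (0.18 ± 0.05) and CRYAB (-0.65 ± 0.15) and HSPB8 (-0.23 ± 0.07) fell. Of 6 metallothioneins, 0 passed in edgeR and 0 in DESeq2, with 1 lower at an unadjusted p under 0.05. In the BCL2 family, BID (-0.29 ± 0.06) fell along with BCL2L11, and MCL1 (0.16 ± 0.06) and BCL2L1 (0.03 ± 0.06) did not pass. Of 17 subunits of the lysosomal proton pump, ATP6V0D2 and ATP6V0A2 (0.27 ± 0.07) rose. ATP6V0D2, an alternative subunit of the membrane ring, was at 2.28, 2.89 and 1.45 CPM in control and 4.49, 6.9 and 5.56 CPM in sgPNA-10b, low levels that did not overlap (1.33 ± 0.22). The enzymes GAA (-0.30 ± 0.07), CTSD (-0.21 ± 0.05) and CTSA (-0.18 ± 0.05) fell among 17 lysosomal genes. Without sgPNA-10b replicate 2, 0 members of the hypoxia, NRF2, heat shock, p53, histone and lysosomal enzyme lists passed. The NRF2, heat shock and p53 lists also had 0 calls without control replicate 1 or 3. The lysosomal enzyme list had 0 without control replicate 1. NEU1, HYOU1 and ATP6V0C, which most cells use, were listed at 0.201 CPM or less in each of the 6 libraries, so nothing can be read of them.

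Beyond these lists, the changes ranked by fold were mostly in scarce transcripts. RANBP3L, a nuclear exporter of SMAD proteins, was at 6.97, 3.12 and 7.99 CPM in control and 1.96, 0.589 and 1.19 CPM in sgPNA-10b, and fell (-2.29 ± 0.37). TMEM119, known as a microglial surface marker and also made by bone-forming cells, was at 20.2, 13.4 and 25.8 CPM in control and 6.74, 5.25 and 6.62 CPM in sgPNA-10b, without overlap. CSF1R, another gene of myeloid cells, fell (-0.36 ± 0.08), while PTPRC, CX3CR1, CD68, CD14 and ITGAM were all below the filter. Of the 4 endothelial markers tested, 1 fell and the other 3 were above 0 and did not pass, with a median of 0.03. The adhesion gene PECAM1 fell (-0.998 ± 0.27) although its groups overlapped, and its call was lost without control replicate 1 or 3 or sgPNA-10b replicate 2 or 3. CDH5, CLDN5 and FLT1 were below the filter, and these untested markers of both cell types stood at 0.484 CPM or less in each library. The part of such cells in these falls was not tested. CYTIP (-1.29 ± 0.19), SLITRK6 (-1.21 ± 0.17), EPPIN (-1.19 ± 0.24) and LRRC74B (-1.12 ± 0.20) were also among the 12 largest falls. The rises by the same rule included SERPINB2, an inhibitor of plasminogen activators (0.99 ± 0.23), C6orf223 (0.89 ± 0.10), PLCXD2 (0.93 ± 0.22) and the noncoding RNAs LINC02392 (1.12 ± 0.24), LINC01723 (1.01 ± 0.30), LINC01363 (0.90 ± 0.22), LINC00520 (0.88 ± 0.19) and AC078850.1 (1.21 ± 0.24). EIF3CL was at 0.469, 0.766 and 1.29 CPM in control and 102, 1.77 and 20.8 CPM in sgPNA-10b. Its near-identical copy EIF3C was at 60.00, 13.7 and 16.7 CPM in control and 14.2, 20.3 and 8.31 CPM in sgPNA-10b. How reads were shared between the copies was not tested, and the value is uncertain. METRNL (1.48 ± 0.39) and the pseudogene SMG1P5 (0.95 ± 0.22), whose parent gene SMG1 is nearly identical, also met the rule. Of the 12 rises, EIF3CL, ATP6V0D2 and C6orf223 kept their calls under every alternative in which they were tested, and of the 12 falls all did. EIF3CL and RANBP3L were not tested at a minimum count of 50.

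By absolute level the largest rises were in INSIG1, IL36B, FOSL1, CCND1 and NPC1, above, and in NAMPT (0.30 ± 0.07), which makes the precursor of NAD, EMP1 (0.22 ± 0.06) and the kinase MAP3K20 (0.23 ± 0.05). The largest falls were in matrix genes, with 2 exceptions. CHI3L1, a secreted glycoprotein that marks mesenchymal glioma, was at 1508, 1145 and 1522 CPM in control and 897, 731 and 906 CPM in sgPNA-10b. Control replicate 2 was below the other two but above every treated library, and the change was -0.72 ± 0.12 (edgeR adjusted p = 0.000878). Of 12 glioma markers tested, CHI3L1 and the intermediate filament gene NES (-0.37 ± 0.10) fell and 0 rose, and the call of NES was lost in DESeq2 and in 5 of the 6 fits without a single library. AKR1B1, the aldose reductase, fell (-0.46 ± 0.09).

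**Figure D4:**
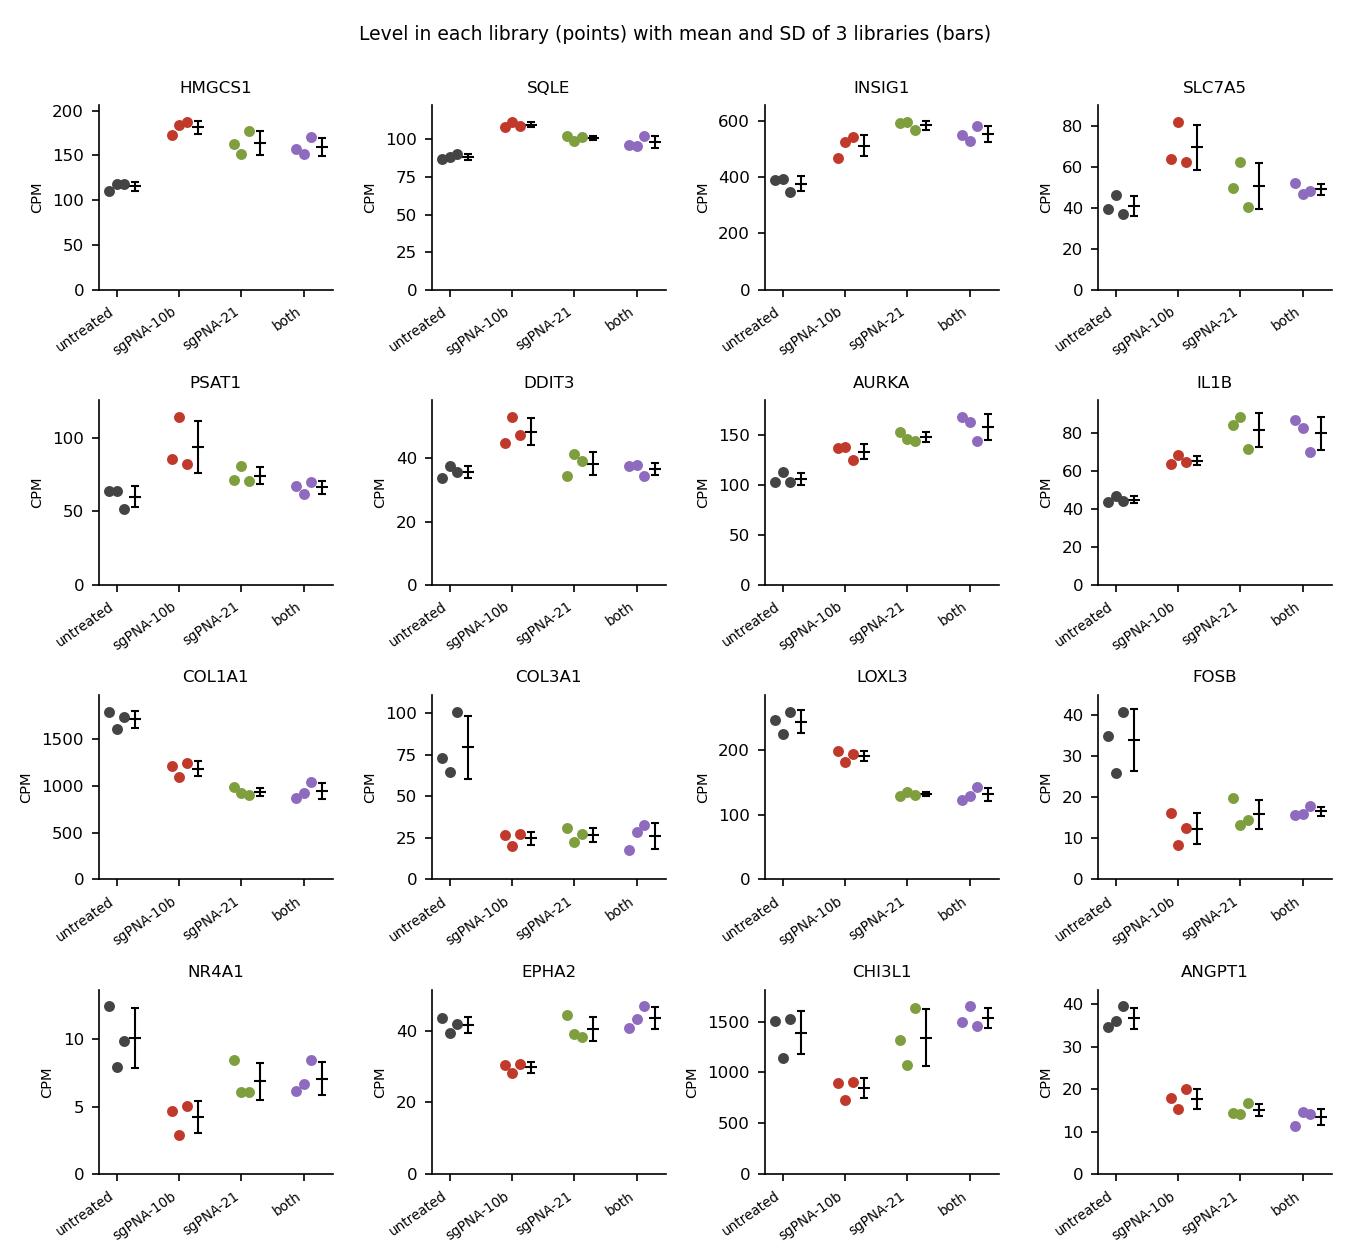
CPM in each library (points) with the mean and SD of 3 libraries (bars) for 16 genes, in untreated cells and cells given sgPNA-10b, sgPNA-21 or both. In each panel the 3 sgPNA-10b libraries lie outside the range of the 3 untreated ones, as for HMGCS1 at 173, 184 and 187 against 109.9, 118 and 118 CPM.

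The direct comparison with sgPNA-21 at the same dose shows where the sgPNA-10b arm differs from another arm that carried nanoparticles. In it 609 genes (3.88%) were higher in sgPNA-10b cells and 458 (2.91%) lower, by the same test. Of 10 enzymes from acetyl units to squalene and 11 from squalene to cholesterol, 0 passed in either direction in edgeR, 1 of each list was higher and 1 lower at an unadjusted p under 0.05, and DESeq2 called 1 of the first as lower. The difference was 0.15 ± 0.06 for HMGCS1 and 0.12 ± 0.05 for SQLE. Of 29 hypoxia and glycolysis genes, 20 were higher in sgPNA-10b and 0 lower, with a median of 0.31. Against untreated cells the median of this list was -0.44 with sgPNA-21 and -0.08 with sgPNA-10b. CA9 was at 252, 250.5 and 248 CPM in sgPNA-10b and 127, 159 and 129 CPM in sgPNA-21, groups that did not overlap (0.86 ± 0.08, edgeR adjusted p = 1.32e-06). Of 13 collagen modifiers, 8 were higher and 0 lower, with a median of 0.40, LOXL3 at 0.54 ± 0.06 and PLOD2 at 0.50 ± 0.08, and the 129, 135 and 131 CPM of LOXL3 in sgPNA-21 lay below every sgPNA-10b library. Of 16 collagen chains 6 were higher than in sgPNA-21 and 0 lower, with COL5A1 at 0.63 ± 0.07 and COL3A1, which did not pass, at -0.13 ± 0.18. Against untreated cells the modifiers had a median of -0.73 with sgPNA-21 and -0.31 with sgPNA-10b. The chains had medians of -0.65 and -0.32.

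Some genes in sgPNA-10b cells passed the test in the same direction against control and against sgPNA-21. The libraries of the sgPNA-10b and sgPNA-21 groups could still overlap. IGFBP4 was at 35.4 CPM in sgPNA-21 replicate 2 and 36.0 in sgPNA-10b replicate 3. DDIT3 was at 34.5, 41.4 and 39.2 CPM in sgPNA-21, below its level in every sgPNA-10b library (0.34 ± 0.07, edgeR adjusted p = 0.00669). ATF3 (0.34 ± 0.06), NUPR1 (0.44 ± 0.06), SLC7A5 (0.47 ± 0.12) and PSAT1 (0.35 ± 0.10) were likewise higher than in sgPNA-21, as were the binding protein protease PAPPA2 (0.75 ± 0.10) and NECAB2 (0.62 ± 0.13). In the other direction EPHA2 was at 44.4, 38.9 and 38.1 CPM in sgPNA-21, above every sgPNA-10b library (-0.44 ± 0.07, edgeR adjusted p = 0.000668). CHI3L1 (-0.67 ± 0.12), MMP1 (-1.003 ± 0.18), NR4A1 (-0.71 ± 0.20), EGR1 (-0.46 ± 0.09), DUSP1 (-0.42 ± 0.09), MMP14 (-0.21 ± 0.05), IGFBP4 (-0.43 ± 0.10), SECTM1 (-0.70 ± 0.19) and the galactosylceramidase GALC (-0.46 ± 0.14) were lower than in sgPNA-21 as well as lower than in control. Against control, SECTM1 lost its call in DESeq2, in the fit of 6 libraries and in 5 fits without a single library, GALC without control replicate 3 or sgPNA-10b replicate 2, and MMP1 without control replicate 1.

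The change with sgPNA-10b could also be set against its change in cells that carried sgPNA-21, a contrast of other libraries (both agents minus sgPNA-21). The difference between the 2 changes passed the test as higher for 258 genes (1.64%) and as lower for 233 (1.48%), and the total of 491 ranged from 92 to 1028 when single libraries were left out. HMGCS1 changed by 0.65 ± 0.06 without sgPNA-21 and by -0.04 ± 0.06 with it, a difference of 0.69 ± 0.08 (edgeR adjusted p = 0.00103). SLC7A11 changed by 0.56 ± 0.11 and -0.30 ± 0.10 (difference 0.86 ± 0.15, adjusted p = 0.00625). COL7A1 changed by -0.67 ± 0.07 and 0.05 ± 0.07 (difference -0.72 ± 0.10, adjusted p = 0.00208). In each of these genes the change seen in otherwise untreated cells was near 0 or of the other sign where sgPNA-21 was present. The list medians in that second contrast were 0.02 for the mevalonate list, 0.04 for collagen chains and -0.07 for ATF4 regulators, beside 0.01 over all genes. Against untreated cells, sgPNA-21 alone gave medians of 0.35, -0.65 and 0.21 for the same lists, beside -0.006 over all genes. It changed SLC7A11 by 0.38 ± 0.11. These lists thus moved the same way with either agent alone. So did others: with sgPNA-21 alone the median was 0.35 for mitosis, 0.27 for replication and 0.22 for cytokines. It was -0.39 for matrix glycoproteins and -0.19 for the TGF-beta list. Some lists differed in sign, as p53 targets did, at -0.03 with sgPNA-10b and 0.08 with sgPNA-21. The dose of nanoparticle carrier in the arm with both agents is not given in the labels, and its part in these values was not tested.

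**Figure D5:**
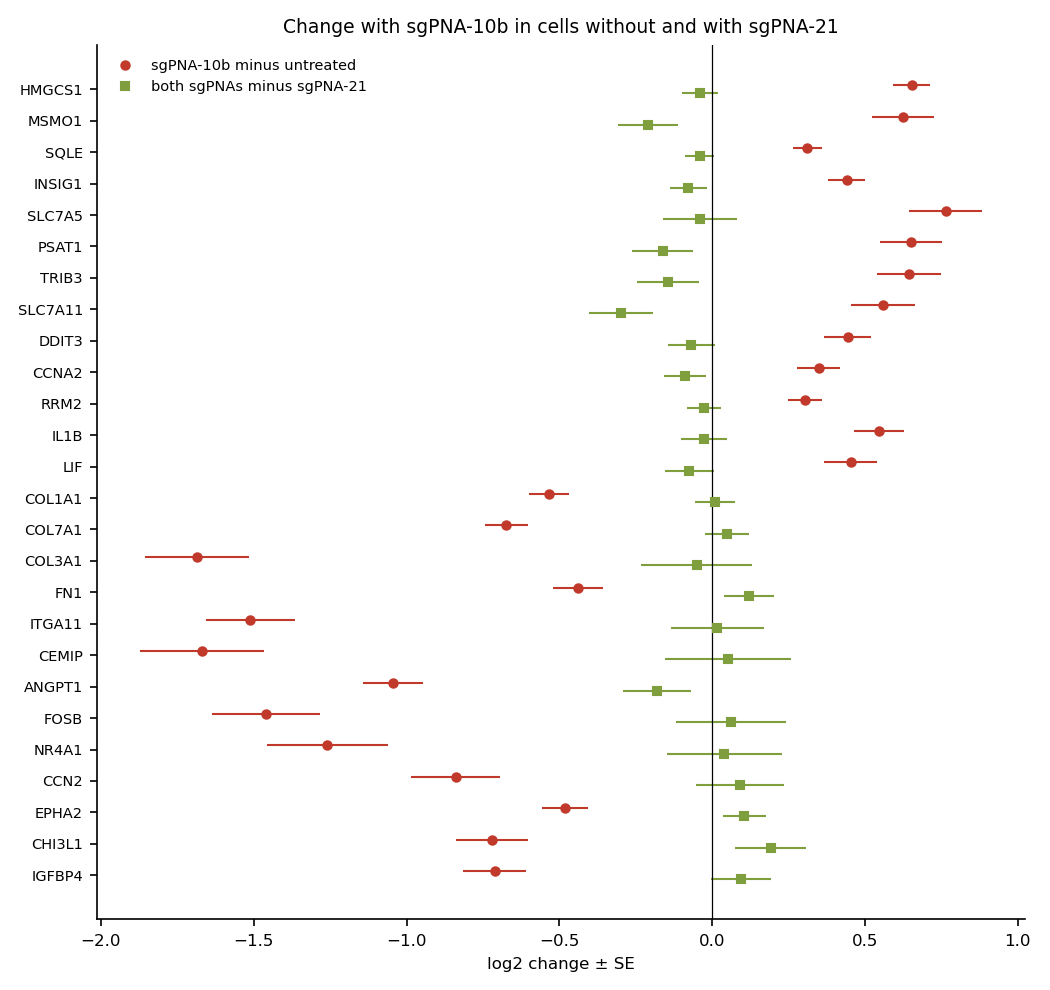
Log2 change with sgPNA-10b (horizontal axis, ± SE) of 26 genes in cells without sgPNA-21 (red circles, sgPNA-10b minus untreated) and with it (green squares, both agents minus sgPNA-21). The circles lie away from 0, as for HMGCS1 at 0.65, and the squares nearer to it. All genes shown were picked from those that passed against untreated cells and in the difference, so this pattern follows from the choice. The change with sgPNA-21 alone is not shown.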

How the data were processed

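The authors deposited whole read counts per gene for 12 libraries of U87 cells, 3 in each of 4 groups. Per the labels' protocols, RNA was extracted with a mirVana kit and made into TruSeq Stranded mRNA libraries. The submitters' processing notes name HISAT2 2.1.0, SAMtools 1.7, HTSeq 0.11.0 and hg38. The sources used here give neither the annotation release nor the strand setting of the counting.

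Genes with too few counts were removed with filterByExpr (minimum count 10), leaving 15715 genes with 99.8% of the counts, and 20026 were removed. All 12 libraries were fitted together with edgeR 4.0.16 in R 4.3.3 (TMM scaling, quasi-likelihood test, Benjamini-Hochberg adjustment over all genes tested, threshold 0.05), with the spread estimated jointly over the 4 groups. Levels are TMM-scaled CPM, and changes are log2 ± SE, n = 3 a group. The common biological coefficient of variation was 0.0518. On simulated counts for 15547 genes, the test of sgPNA-10b against control recovered 44% of genes changed 1.25-fold, 76% at 1.5-fold, 78% at 2-fold and 94% at 3-fold, with 10 false calls.

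Seed matches were searched in the longest GENCODE 29 3′ UTR of each gene, and promoters and the microRNA were taken from RefSeq GRCh38.p14. The members and the 43 gene lists were chosen with earlier results of these data known. Of 729 list entries, 17 were not matched, 72 were below the filter and 640 were tested. Named are the 12 largest rises and falls by fold and the 8 by CPM, among called genes whose mean log2 CPM reached 1 and whose groups did not overlap. Also named are up to 5 called members per list by p with others that order the account, all reported targets and HOXD genes that can be reported here, up to 6 genes a direction also called against sgPNA-21, and up to 5 a direction with an 8-base site. Some members of the lists are counted but not reported by name here. Alternatives were DESeq2 1.42.0, other scalings and filters, a fit of the 6 libraries alone, a replicate block and leaving out each library. Those for the difference between changes with and without sgPNA-21, and leaving out sgPNA-21 libraries, were chosen after seeing the data.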

Additional observations from a re-analysis of the deposited data

Results flagged for a closer look

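For 94 of the named genes, the change with sgPNA-10b differed between cells without sgPNA-21 (sgPNA-10b minus untreated) and cells with it (both agents minus sgPNA-21) by edgeR's quasi-likelihood test with Benjamini-Hochberg adjustment over all genes. The values below are the first change minus the second, in log2. They rest on 12 libraries, 3 a group, and the count over all genes moved widely when single libraries were left out. Many of these genes were chosen for their change against the untreated libraries, which the difference shares, so their direction is not independent of that choice. With sgPNA-21 alone against untreated cells, the median was 0.35 for the mevalonate list and -0.65 for collagen chains.

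In the sterol and lipid lists the differences were SREBF2 0.23, DHCR7 0.33, FDFT1 0.34, SQLE 0.35, MVD 0.40, FADS2 0.47, ACAT2 0.50, INSIG1 0.52, HMGCS1 0.69 and MSMO1 0.84. In the amino acid response they were MTHFD2 0.38, SLC38A1 0.41, SLC3A2 0.36, ATF3 0.41, SESN2 0.46, CEBPG 0.49, DDIT3 0.51, TRIB3 0.79, SLC7A5 0.80, PSAT1 0.81 and SLC7A11 0.86, and for the tRNA synthetases MARS1 and WARS1, listed under their older symbols, MARS 0.32 and WARS 0.31. Cell division and ERK genes gave RRM2 0.33, CCNA2 0.44, RFC3 0.46, HMMR 0.48, ETV5 0.33 and ETV4 0.40. Inflammatory genes gave LIF 0.53, IL1B 0.57, CXCL2 0.63, IL36B 0.64 and BIRC3 1.05. The other genes with a difference above 0 were MAP3K20 0.29, ATP6V0A2 0.33, NAMPT 0.46, EIF1AX 0.47, FBXO28 0.54, ADAMTS5 0.66, PAPPA2 0.72, NECAB2 0.79, C6orf223 0.86, LINC02392 1.25, AC078850.1 1.26, ATP6V0D2 1.38 and SERPINB2 1.40.

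Collagen chains gave COL3A1 -1.64, COL7A1 -0.72, COL1A1 -0.54, COL16A1 -0.54, COL1A2 -0.53, COL6A3 -0.39 and COL6A1 -0.39, and the genes that trim or crosslink them BMP1 -0.49, LOXL1 -0.47, LOXL3 -0.35 and P4HA2 -0.33. Other matrix genes, receptors and proteases gave CEMIP -1.72, ITGA11 -1.53, ITGA10 -0.99, NID2 -0.72, FN1 -0.56, THBS2 -0.51, LAMB1 -0.41, SPARC -0.36, MMP14 -0.30 and TIMP2 -0.28. Immediate early genes gave FOSB -1.52, NR4A1 -1.30, FOS -0.87, DUSP1 -0.54 and JUNB -0.38. Growth factors, their receptors and contractile genes gave CCN2 -0.93, ANGPT1 -0.86, IGFBP4 -0.81, TGFB3 -0.73, PDGFRB -0.48, NRP1 -0.29 and TPM2 -0.43. The remaining values below 0 were RANBP3L -2.16, TMEM119 -1.88, SLITRK6 -1.30, CYTIP -1.11, SECTM1 -1.01, CHI3L1 -0.91, FAIM2 -0.73, NES -0.63, EPHA2 -0.59, ABCC3 -0.58, CSF1R -0.49, AKR1B1 -0.48 and ARSI -0.38.

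The splicing factor SRSF1, a reported target, was the member that did not pass against untreated cells and yet gave a difference, 0.74: its change was 0.33 without sgPNA-21 and -0.41 with it (adjusted p = 0.0284, edgeR).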

How the results depend on the processing

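Against untreated cells, 432 genes were higher and 587 lower. Without a filter on low counts 690 were higher. Leaving out single libraries gave 98 to 576 higher and 208 to 676 lower, lowest without sgPNA-10b replicate 2. DESeq2 called 414 and 508, other scalings 394 to 442 and 572 to 637, and the 6 libraries alone 384 and 482. Against sgPNA-21, leaving out single libraries gave 351 to 494 higher and 194 to 303 lower. The difference between the changes without and with sgPNA-21, called for 491 genes, was called for 1074 without the filter and for 92 to 1028 when libraries were left out, and could not be fitted with 6 libraries. Of 191 named genes, 163 were called, 82 of them under every alternative that tested them, and 0 reversed. DESeq2 lost 7 of the named calls and the fit without sgPNA-10b replicate 2 lost 74. The cause of these shifts was not tested. Deviations of same-numbered control and sgPNA-10b libraries correlated at -0.05 to 0.027 over 3 pairs. Same-numbered sgPNA-21 libraries correlated at 0.053, 0.109 and 0.056 with control and at 0.059, 0.023 and 0.034 with sgPNA-10b. Same-numbered libraries with both agents correlated at -0.026, -0.002 and 0.081 with sgPNA-10b. Whether replicate numbers pair the libraries was not tested. A replicate block gave 562 higher and 709 lower. In the simulation, which changed 50 genes at each fold, 44% of 1.25-fold changes were recovered. Smaller changes were not simulated. Recovery of single genes does not bear on the medians over seed-matched transcripts.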
